A study of Mus musculus with 78 samples.

Results

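Neutrophils carry proteins that kill microbes, digest matrix and raise alarm. The 10 genes described here (S100a8, S100a9, Retnlg, Lcn2, Il1b, Csf3r, Mmp8, Mmp9, Ngp and Camp) code for such proteins and for the receptor that drives the making of these cells. They were taken by name, and all 10 were found among the 20673 genes measured. Their levels were followed in bulk RNA sequencing of 78 libraries from C57BL/6 mice, covering 4 solid tissues (cecum, colon, hippocampus and hypothalamus) and peripheral blood mononuclear cells (PBMC). The question was whether circadian rhythm disruption (CRD) moved them, at either age, relative to a regular light cycle (CON).

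All mice were C57BL/6 and carried no stated transgene or mutation. CRD mice lived with light and dark phases that were swapped every 3 days for 4 weeks. They then had 48 h of light in turn with 48 h of darkness for 3 weeks, and a last stage of 1 week in constant light. CON mice had 12 h of light and 12 h of darkness. Mice were labelled 18 months or 8 weeks old. By the labels' stage lengths the CRD schedule itself lasted 8 weeks, and whether an age label gives the age at its start or at collection is not stated. At 18 months the cecum had 4 CRD and 4 CON libraries, the colon 4 CRD and 5 CON, and each brain region 5 CRD and 4 CON. At 8 weeks the cecum and each brain region had 5 CRD and 5 CON libraries, and the colon 5 CRD and 4 CON. PBMC were measured at 18 months only, with 2 CRD and 2 CON libraries. Whether each numbered library is a different mouse is not stated, and p-values cover no more than the spread among these libraries, which may be technical. The sources used here give no sex, hour of collection or batch, and an effect of the hour cannot be told apart from one of the schedule.

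Values were FPKM, fragments scaled by transcript length and by the total mapped. Read depth is not stated in the sources used here, and no counting error was given. Total FPKM ran from 430706 to 590745 in solid tissue and from 502827 to 960370 in PBMC. Tissue markers followed the labels. The B cell gene Cd79a had 523 to 724 FPKM in PBMC, the epithelial gene Epcam 476 to 921 in the gut tissues, and the synaptic gene Snap25 521 to 1189 in the brain regions. Epcam reached 1.05 FPKM and Snap25 0.34 FPKM in PBMC at most. PBMC from CRD replicate 1 stood apart, with 41.1% of its total FPKM in red cell genes. In hippocampus 4 libraries, all CRD, had under 1000 FPKM of Ttr, a choroid plexus gene, where the CON libraries had at least 3000.

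S100A8 and S100A9 pair into calprotectin, which fills the cytosol of neutrophils, starves microbes of metal ions and acts outside the cell as an alarmin, a danger signal. LCN2, NGP, CAMP and MMP8 belong to the granules, which are loaded while the cell matures in the bone marrow, and MMP9 sits in granules made late. CSF3R binds granulocyte colony-stimulating factor, and IL1B is a secreted cytokine that calls in further neutrophils. Not all of these genes are private to neutrophils: monocytes also make S100A8, S100A9 and IL1B, and epithelium makes LCN2.

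S100a8 (chromosome 3, 90669071 to 90670034, GRCm38.p6) and S100a9 (chromosome 3, 90692630 to 90695721) lie 22595 bases apart. Ngp (chromosome 9, 110419808 to 110423012) and Camp (chromosome 9, 109847377 to 109849456) lie 570351 bases apart. The remaining members are Retnlg (chromosome 16, 48872608 to 48874498), Lcn2 (chromosome 2, 32384637 to 32387739), Il1b (chromosome 2, 129364569 to 129371164), Mmp9 (chromosome 2, 164940326 to 164955850), Csf3r (chromosome 4, 126023441 to 126044975) and Mmp8 (chromosome 9, 7558429 to 7568486). The promoters of the 4 members with the smallest p in PBMC are shown because these genes moved together there. Each runs from 250 bases before to 50 bases after the RefSeq start site (GRCm38.p6), 5′ to 3′ on the gene's own strand. Capitals mark matches, on either strand, to TTGCNNAA (a core of C/EBP sites), GGAAGT (Ets family) and the TATA motif TATAAA.
Retnlg (chr16:48872358-48872657, plus strand): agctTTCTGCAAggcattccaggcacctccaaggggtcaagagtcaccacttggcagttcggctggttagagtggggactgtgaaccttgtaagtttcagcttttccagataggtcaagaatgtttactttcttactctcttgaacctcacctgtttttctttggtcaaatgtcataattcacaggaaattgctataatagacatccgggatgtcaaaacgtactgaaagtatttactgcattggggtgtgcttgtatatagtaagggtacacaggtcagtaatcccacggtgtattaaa
S100a9 (chr3:90695672-90695971, minus strand): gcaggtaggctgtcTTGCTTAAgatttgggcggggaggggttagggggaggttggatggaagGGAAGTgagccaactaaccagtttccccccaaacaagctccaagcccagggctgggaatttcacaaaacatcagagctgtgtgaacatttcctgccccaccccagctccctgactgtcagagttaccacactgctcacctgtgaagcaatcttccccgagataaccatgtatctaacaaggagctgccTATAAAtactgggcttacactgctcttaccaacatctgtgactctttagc
S100a8 (chr3:90668821-90669120, plus strand): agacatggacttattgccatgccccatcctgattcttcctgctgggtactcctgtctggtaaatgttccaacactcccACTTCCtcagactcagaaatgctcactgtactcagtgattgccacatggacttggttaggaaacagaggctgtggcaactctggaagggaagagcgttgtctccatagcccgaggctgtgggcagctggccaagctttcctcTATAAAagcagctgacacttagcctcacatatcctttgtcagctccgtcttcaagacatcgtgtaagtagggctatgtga
Camp (chr9:109849407-109849706, minus strand): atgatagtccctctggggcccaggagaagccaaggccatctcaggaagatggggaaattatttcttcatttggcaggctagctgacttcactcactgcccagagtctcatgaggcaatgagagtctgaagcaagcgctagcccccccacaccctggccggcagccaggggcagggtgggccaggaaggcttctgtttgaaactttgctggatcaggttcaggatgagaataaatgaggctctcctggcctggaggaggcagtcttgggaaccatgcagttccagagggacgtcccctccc

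In these windows Retnlg and S100a9 held TTGCNNAA, S100a9 and S100a8 held both the Ets and the TATA motif, and Camp held none of these. The S100a8 TATA motif began 30 bases before the start site (position -30), and the S100a9 one began at position 0, the annotated start itself. In all, 9 motifs were searched on both strands in the 9 members that had a promoter entry, and the search was set up after the PBMC values had been seen. TTGCNNAA was in 5 of 9 members against 10.8% of 32851 promoters, the Ets motif in 4 against 23.8%, and the TATA motif in 4 against 13.6%. The looser TTNNGNAA, which read on both strands covers every TTGCNNAA match, was in 7 against 40.7%, GAGGAAGT, which contains the Ets motif, in 2 against 3.20%, and a loose NF-kB motif in 3 against 50.8%. TGANTCA (AP-1), the E-box CACGTG and a motif of interferon regulatory factors were in 0 of 9, against 7.81%, 7.15% and 3.44% of promoters. These are matches of letters in a short window and show no binding.

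All 10 genes were highest in PBMC, and no library of solid tissue reached the lowest PBMC library for any of them. The gap was widest for Mmp8, the neutrophil collagenase, with 23.1 FPKM in its lowest PBMC library against 0.26 in its highest solid library, a ratio of 88.8. S100a9 had a ratio of 24.5, S100a8 of 19.8, Ngp of 18.6, Retnlg, a resistin-like secreted protein, of 12.3, Csf3r of 10.7 and Camp of 8.78. The gap was narrowest for Il1b (2.98), Mmp9 (3.02) and Lcn2 (3.74). Tissues are set side by side here and were not tested against each other.

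**Figure D1:**
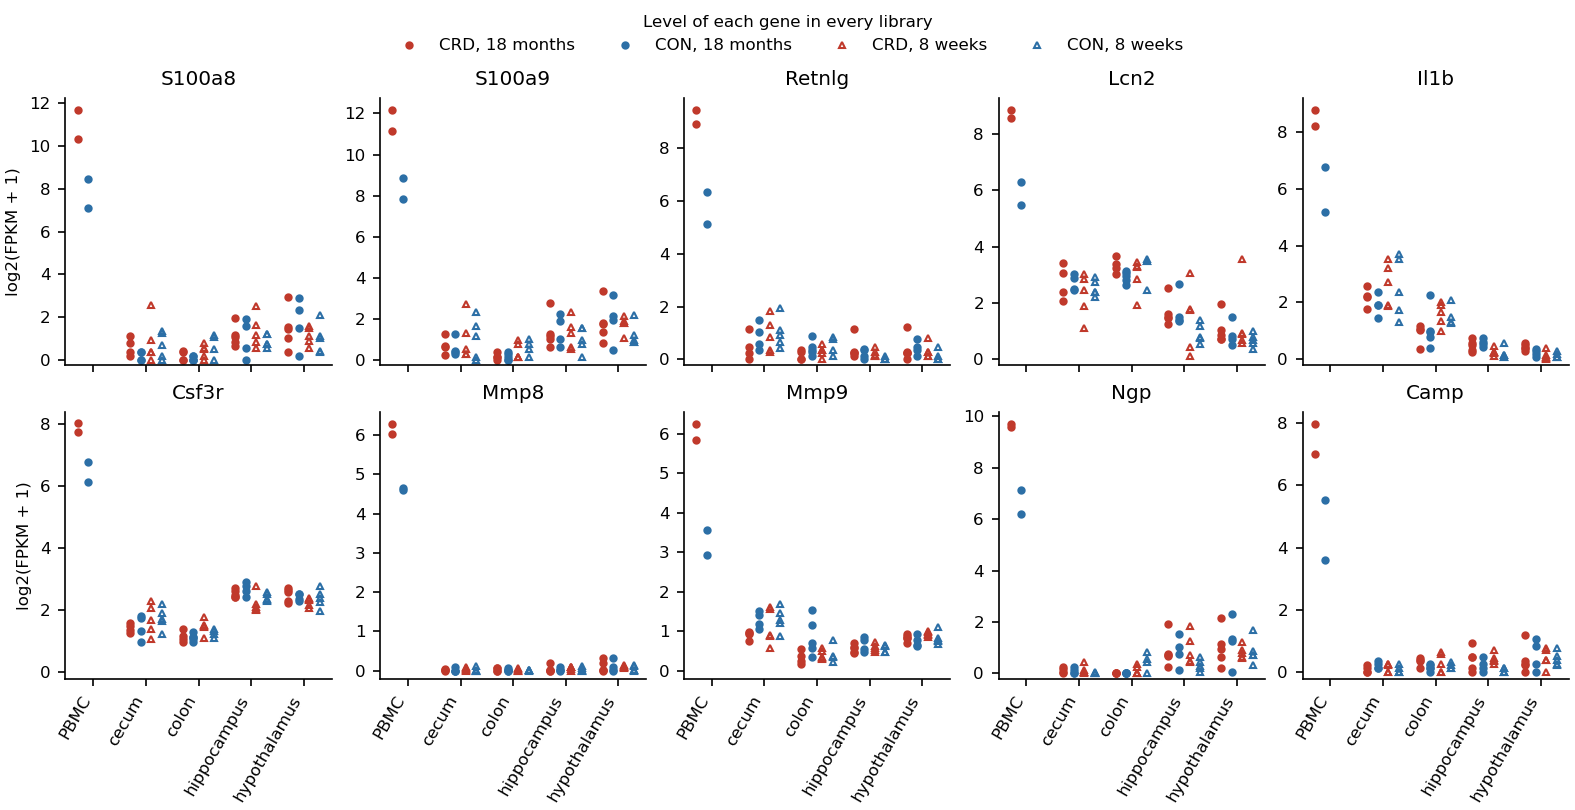
Level of each gene in every library as log2(FPKM + 1), 1 panel a gene with its own vertical axis. Filled circles are 18 months, open triangles 8 weeks, red CRD and blue CON; PBMC stand above every solid library in each panel, with CRD above CON.

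Among solid tissues the genes had different orders. Lcn2, which binds the iron carriers of bacteria, averaged 7.90 ± 2.36 FPKM in colon (SD, n = 18), 5.15 ± 2.03 in cecum (n = 18), 2.07 ± 1.86 in hippocampus (n = 19) and 1.38 ± 2.35 in hypothalamus (n = 19). Il1b averaged 4.77 ± 3.28 FPKM in cecum and 1.60 ± 1.01 in colon, against 0.297 ± 0.202 in hippocampus and 0.172 ± 0.139 in hypothalamus. For both genes each gut mean stood above each brain mean, and neighbours within the gut and within the brain overlapped in their ranges. Gut and brain libraries overlapped too. Lcn2 ran from 1.13 to 11.69 FPKM in gut and from 0.07 to 10.78 in brain. Il1b ran from 0.27 to 11.93 FPKM in gut and from 0 to 0.68 in brain.

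Csf3r ran the other way, at 4.59 ± 1.00 FPKM in hippocampus and 4.31 ± 0.785 in hypothalamus, against 2.15 ± 0.841 in cecum and 1.43 ± 0.382 in colon. It was at least 2.91 FPKM in each of the 38 brain libraries. S100a8 averaged 1.95 ± 1.96 FPKM in hypothalamus, 1.37 ± 1.14 in hippocampus, 0.742 ± 1.17 in cecum and 0.316 ± 0.399 in colon, and S100a9 followed the same order with 2.73 ± 2.33, 1.72 ± 1.47, 1.18 ± 1.54 and 0.317 ± 0.344 FPKM. Their neighbours in that order did not differ beyond their spread. Ngp averaged 1.15 ± 1.04 FPKM in hypothalamus and 0.808 ± 0.795 in hippocampus and stood at or below 0.77 in every gut library. Mmp9, gelatinase B, lay between 0.13 and 2.20 FPKM in all solid libraries. Retnlg peaked at 2.80 FPKM in cecum, Camp at 1.28 in hypothalamus and Mmp8 at 0.26 there, and they were listed at 0 in 13, 18 and 24 of 74 solid libraries.

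In PBMC at 18 months, transcripts of all 10 genes were more abundant in both CRD libraries than in either CON library. The alarmin pair had the highest levels. S100a8 had 3207 and 1293 FPKM in CRD, against 345 and 136 FPKM in CON. S100a9 had 4535 and 2242 FPKM in CRD, against 465 and 229 FPKM in CON. For both genes the lower CRD library, replicate 2, still stood well above the higher CON library, replicate 1. The ratio of S100a9 to S100a8 was 1.41 and 1.73 in CRD and 1.35 and 1.68 in CON, so it differed less between the schedules than between the replicate numbers.

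The granule genes showed the same split. Ngp, a cystatin-related granule protein, had 823 and 757 FPKM in CRD, against 141 and 72.9 in CON. Camp, which codes for the cathelicidin peptide, had 247 and 128 FPKM in CRD, against 44.7 and 11.2 in CON. Lcn2 had 463 and 377 FPKM in CRD, against 78.5 and 43.7 in CON. CON replicate 2 was the lowest library for these 3 genes, and the groups were apart in each. Mmp9 had 56.5 and 74.8 FPKM in CRD, against 6.64 and 10.9 in CON. Mmp8 had 76.5 and 64.7 FPKM in CRD, against 24.2 and 23.1 in CON. The matrix proteases thus also separated, Mmp9 by the wider margin.

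Retnlg had 689 and 486 FPKM in CRD, against 79.2 and 34.4 in CON. Il1b had 437 and 299 FPKM in CRD, against 108 and 35.6 in CON. Csf3r had 215 and 263 FPKM in CRD, against 69.6 and 110 in CON. Csf3r came closest to an overlap, its lower CRD library standing 1.96 times above its higher CON library, where Retnlg stood 6.13 times above.

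**Figure D2:**
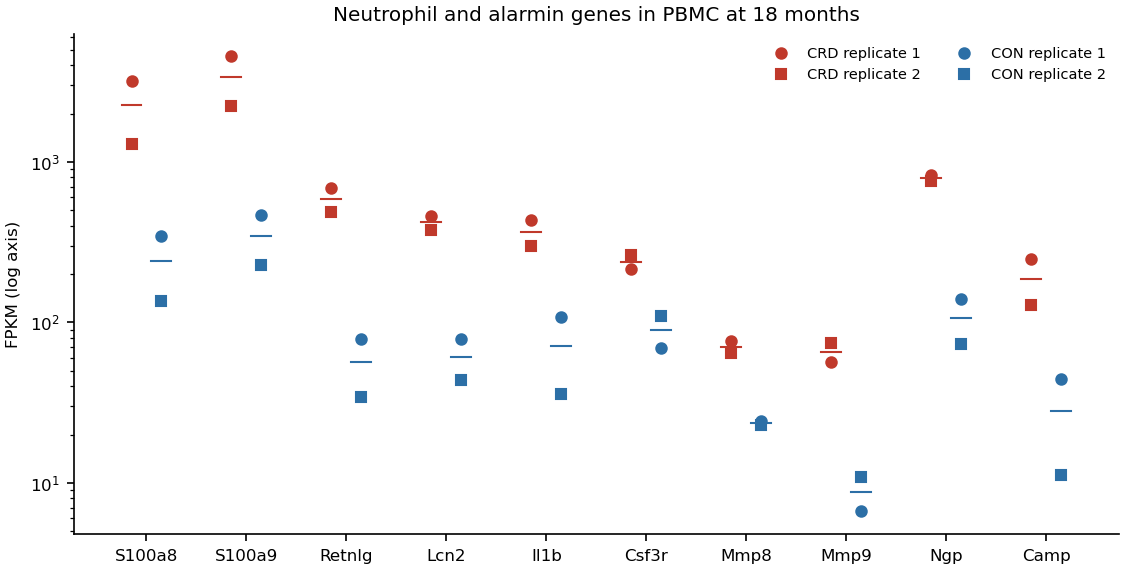
FPKM (log axis) of the 10 genes in each PBMC library at 18 months; red is CRD and blue CON, circles replicate 1, squares replicate 2, and short lines the means of 2 libraries. CRD libraries stand above CON libraries for every gene.

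The ratio of mean FPKM in CRD to that in CON was 10.3 for Retnlg, 9.77 for S100a9, 9.36 for S100a8, 7.49 for Mmp9, 7.40 for Ngp, 6.87 for Lcn2, 6.70 for Camp, 5.14 for Il1b, 2.99 for Mmp8 and 2.67 for Csf3r. On the log2(FPKM + 1) scale, limma called 8 of the 10 genes at a Benjamini-Hochberg adjusted p under 0.05, all higher in CRD, where 1.13% of 11770 tested genes were called (0.935% higher and 0.195% lower). Groups that did not overlap, CRD higher, were found for 10 of 10 members and for 6.99% of all tested genes, and 49.2% of tested genes did not overlap with CRD lower. The members were chosen with earlier results of these data known, so setting them against all genes is no independent test. Retnlg rose by 3.44 ± 0.58 (SE, adjusted p = 2.01e-06), S100a9 by 3.29 ± 0.61 and S100a8 by 3.23 ± 0.60 (adjusted p = 3.84e-05 each). Ngp rose by 2.95, Camp by 2.92, Lcn2 by 2.81, Mmp9 by 2.79 and Il1b by 2.53, with limma adjusted p-values from 6.83e-05 to 0.00191. Mmp8 at 1.53 ± 0.56 (adjusted p = 0.201) and Csf3r at 1.44 ± 0.57 (adjusted p = 0.271) were not called. The median change of the 10 members was 2.87 against -0.49 for all tested genes.

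These calls rest on 4 libraries and a model assumption. With 2 against 2, an exact two-sided permutation test cannot give a p below 0.333, and limma here took the error of each gene wholly from the trend over genes, so neither SE nor p measures a gene's own spread. The number of members called was 0 of 10 when the filter on low values was dropped, 0 of 10 under median-of-ratios scaling and 0 of 10 without CON replicate 2. It was 4 of 10 without CON replicate 1, and 8 to 10 under the other alternatives, including 9 without CRD replicate 1 and 10 without CRD replicate 2. The groups do not overlap for any member, so the sign of a change could hardly turn in these fits and says nothing of stability. The size moved: with 1 library left out, Camp ran from 1.97 (without CON replicate 2) to 3.87 (without CON replicate 1) and Il1b from 1.74 to 3.31 (without the same libraries). The lowest such values of Retnlg, S100a9, S100a8, Ngp, Lcn2 and Mmp9 lay between 2.40 and 2.85, that of Mmp8 was 1.41 and that of Csf3r 1.11. All 10 members had an unadjusted p under 0.05 without the filter and under the other scaling. That scaling moved the median of all genes to 0.00 and that of the members to 3.47.

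The PBMC libraries also differed in red cell and platelet transcripts. Hemoglobin and Alas2 transcripts made up 41.1% and 5.64% of total FPKM in CRD, against 4.84% and 0.490% in CON. All 5 red cell genes were called higher in CRD, by 3.66 to 3.93, though the globin copies are near-identical and Hbb-bs and Hbb-bt overlapped between the schedules. With 1 library left out the red cell changes ran from 1.36 (Hbb-bs, without CON replicate 2) to 6.00 (Hbb-bs, without CON replicate 1). Without CON replicate 2 limma called 0 of these 5 genes, and without CRD replicate 1 it called Alas2 alone. The sum of 5 platelet genes was 11187 and 3294 FPKM in CRD, against 2864 and 1356 in CON, with 1 of 5, Gp1bb, called. The 10 members held 1.12% and 1.05% of total FPKM in CRD, against 0.225% and 0.140% in CON, and 1.90% and 1.11% against 0.237% and 0.141% once red cell genes were left out of the total. With red cell and platelet genes removed and libraries rescaled, 8 of 10 members were called, with a median change of 2.84. The part of red cell content in the members' values was not otherwise tested. In bulk RNA, more cells of a type and more RNA per cell cannot be told apart.

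Other neutrophil genes moved in part. Of 6 further secondary granule genes tested, 3 rose: Ltf (lactoferrin) by 2.83 ± 0.56, Itgb2l, a beta integrin chain, by 1.97 ± 0.43 and Olfm4 (olfactomedin 4) by 1.57 ± 0.38, with limma adjusted p-values of 1.15e-04, 0.00113 and 0.00494. Ltf had 106 and 129 FPKM in CRD, against 17.51 and 14.01 in CON. Cd177 (0.30), Pglyrp1 (0.28) and Chil3 (-0.49) were not called. The list's median was 0.93, above the -0.49 of all tested genes.

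Of 11 surface genes of neutrophils, 4 rose. Mrgpra2b, a receptor, rose by 2.91 ± 0.53, Ly6g, the surface antigen most used to mark mouse neutrophils, by 2.74 ± 0.53, Il1r2, a decoy receptor for IL-1, by 2.39 ± 0.56 and Cxcr2, the receptor for neutrophil chemokines, by 2.05 ± 0.55 (limma adjusted p from 2.45e-05 to 0.0213). Ly6g had 20.5 and 19.2 FPKM in CRD, against 2.93 and 1.47 in CON. Mrgpra2b and Ly6g have close relatives in the genome, and how shared reads were split is not given in the sources used here. Clec4d at 1.42 (adjusted p = 0.265) was not called, and neither were Trem1, Fpr1, Clec4e and Fpr2 (0.03 to 0.53) nor Cxcr4 at -0.37. The median of the 11 was 0.53. The list of primary granule genes, made at the promyelocyte stage, gave 0 calls by limma among 4 tested. Its median was -0.01, with 1 gene at an unadjusted p under 0.05. That gene was Cebpe, listed there although it codes for a factor that drives granule gene transcription and not for a granule protein. Cebpe changed by 1.21 ± 0.36 (limma adjusted p = 0.0632), with 2.27 and 2.91 FPKM in CRD, against 0.45 and 0.65 in CON. The others tested were Ctsg (-0.40), Fcnb (0.05) and Prtn3 (-0.07). Elane and Mpo stood at or below 0.68 FPKM in all 4 libraries.

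**Figure D3:**
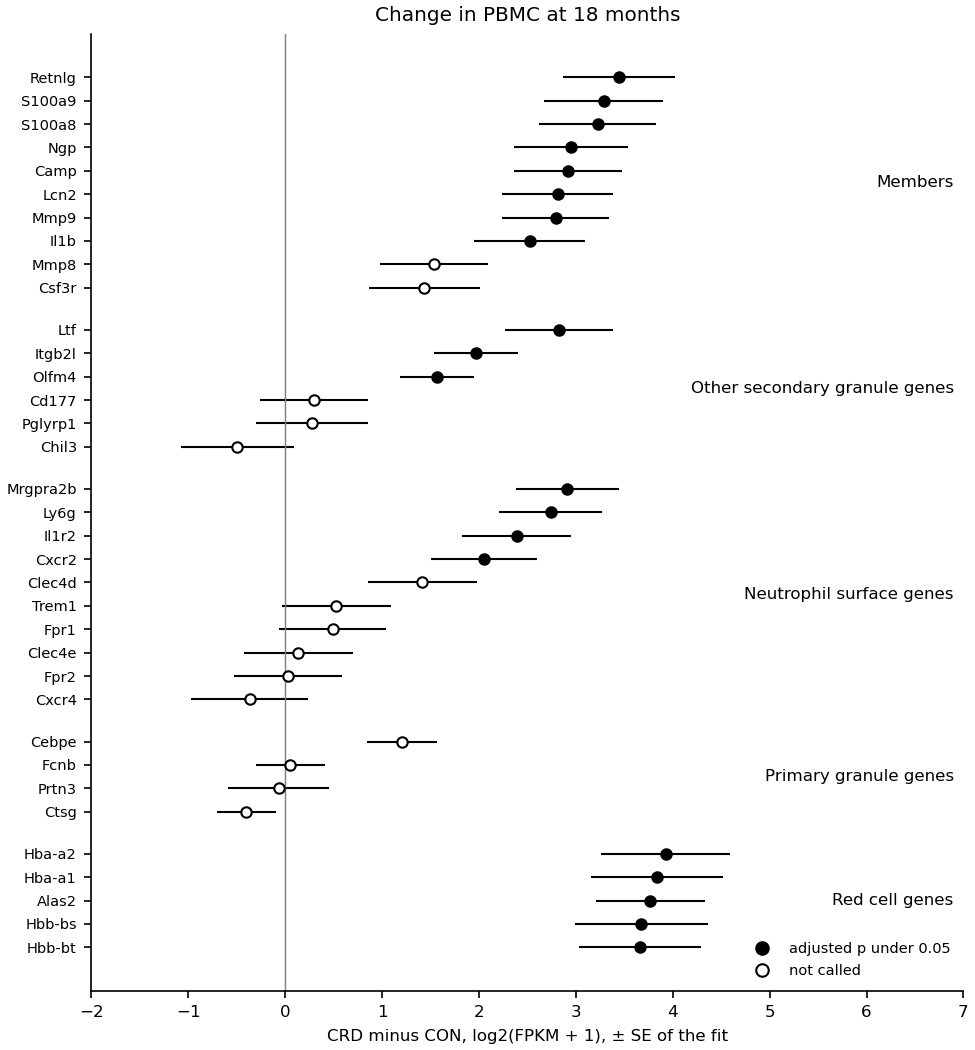
Change in PBMC at 18 months (CRD minus CON, log2(FPKM + 1)) with the standard error of the fit, for the members, genes of the neutrophil lists and the red cell genes; filled points had a limma adjusted p under 0.05. Members lie between 1.44 and 3.44, while genes of the other neutrophil lists run on both sides of 0 and red cell genes lie between 3.66 and 3.93.

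Of 7 neutrophil-recruiting ligands tested, 3 rose. Cxcl2 rose by 2.77 ± 0.56, Cxcl3 by 1.72 ± 0.39 and Cxcl1 by 1.34 ± 0.35 (limma adjusted p = 1.61e-04, 0.00172 and 0.0136), ligands of CXCR2. Cxcl5, another of its ligands, had 2.69 and 1.45 FPKM in CRD, against 0.97 and 0.67 in CON, and was not called (0.73 ± 0.36, limma adjusted p = 0.369). Cxcl2 had 91.6 and 121 FPKM in CRD, against 22.5 and 9.30 in CON. Tnf (-0.22), Il6 (-0.38) and Il1a (0.34) were not called. Among alarmin pathway genes, 0 of 10 were called by limma and 1 had an unadjusted p under 0.05. That gene was Il1rn, the natural blocker of the IL-1 receptor, at 1.88 ± 0.55 (limma adjusted p = 0.0504), with 26.0 and 18.8 FPKM in CRD, against 8.55 and 3.12 in CON.

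The wider families of the members stayed below the threshold. Of the other S100 genes, 0 of 6 tested were called by limma (median 0.75), of the other matrix metalloproteinases and their inhibitors 0 of 2 (median -0.11), and of the epithelial inflammation genes 0 of 1 (Saa3 at 1.54). Each of these lists had 1 gene at an unadjusted p under 0.05. Monocyte and macrophage genes had 1 of 11 called, lower in CRD. The list's median was -0.59, close to that of all genes. Ly6c2, a marker of inflammatory monocytes, had 1731 and 3716 FPKM in CRD, against 662 and 544 in CON, and was not called (2.08 ± 0.62, adjusted p = 0.0651). T and NK cell genes (0 of 7 called by limma, median -0.37), B cell genes (0 of 5, median -0.23), mast cell genes (0 of 3, median -0.47) and eosinophil genes (0 of 1) gave no call and had 0 genes at an unadjusted p under 0.05. With no filter and under median-of-ratios scaling limma called no gene of these lists either, 0 of all genes being called there (1604 and 993 at an unadjusted p under 0.05). Whether a different mix of white cells accounts for the values of the members was not tested.

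In the solid tissues no member was called in any comparison. The filter on low values (0.5 FPKM on average over a tissue's libraries) let through 7 members in cecum, 3 in colon and 6 in each brain region, the others being too low to test. Across CRD against CON at each age, the difference of those effects between the ages, and 18 months against 8 weeks in CON, limma called 0 members in all 16 comparisons, and 0 of the members that passed had an unadjusted p under 0.05. Tested without the filter, the members it left out were not called either, though results with an unadjusted p under 0.05 numbered 6 in colon, 2 in hippocampus, 1 in hypothalamus and 0 in cecum. Their adjusted p went no lower than 0.382 in cecum, 0.0929 in colon, 0.129 in hippocampus and 0.349 in hypothalamus.

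In the cecum at 18 months, 0 of 7 members were called, against 0.0291% of all genes, and their changes ran from -0.40 to 0.43. Of these members Mmp9 had the smallest p. It had 0.98, 0.91, 0.94 and 0.69 FPKM in CRD, against 1.08, 1.25, 1.85 and 1.66 in CON, so the CRD libraries all lay below the CON libraries by a small margin. Of all genes tested, 8.66% had groups apart in that direction. The change of Mmp9 was -0.38 ± 0.21 (95% interval -0.82 to 0.06, limma adjusted p = 0.369). In colon, where Mmp9 did not pass the filter, it had 0.30, 0.13, 0.47 and 0.19 FPKM in CRD at 18 months, against 0.50, 0.62, 1.90, 1.24 and 0.27 in CON, and the groups overlapped. Fitted without the filter, that change was -0.52 ± 0.19 (limma adjusted p = 0.186).

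Il1b, a product of macrophages as well as neutrophils, had 3.63, 4.90, 3.50 and 2.39 FPKM in CRD cecum at 18 months, against 1.71, 2.76, 4.17 and 2.75 in CON. At 8 weeks it had 8.24, 5.54, 10.53, 2.68 and 2.72 FPKM in CRD, against 11.93, 10.52, 2.32, 4.11 and 1.45 in CON. The groups overlapped at both ages, and the spread was wide at 8 weeks in both schedules. The change was 0.27 ± 0.47 at 18 months and 0.12 ± 0.42 at 8 weeks (limma adjusted p = 0.778 and 0.976). The 8-week cecum gave 0 of 7 members called, against 0.00727% of all genes, with changes from -0.26 to 0.16. For the difference of the effects it gave 0 of 7 against 0.0364%, from -0.31 to 0.28.

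Of the 8-week cecum libraries, CRD replicate 3 was the highest of all 18 cecum libraries for S100a8 (4.99 FPKM), S100a9 (5.81) and Csf3r (3.96), and was also high for Retnlg (2.52) and Il1b (10.53). Across the 18 cecum libraries, deviations from the group means of S100a8 went with those of S100a9 (Pearson r = 0.915, permutation p adjusted over 19 relations = 0.00057, Spearman's rho = 0.900, r = 0.882 without the 2 farthest libraries). They also went with those of Il1b (r = 0.722, adjusted permutation p = 0.0089), though by rank the relation missed the threshold (rho = 0.677, adjusted p = 0.055). Not called were Csf3r (r = 0.587), Retnlg (0.507), Lcn2 (0.502), Mmp9 (0.408) and the sum of red cell genes (-0.135). Their adjusted permutation p-values ran from 0.086 to 0.77. These relations were chosen after the values had been seen.

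In the colon, Lcn2, Il1b and Csf3r were tested. At 18 months Lcn2 had 7.13, 8.48, 11.69 and 9.39 FPKM in CRD, against 6.01, 7.45, 7.82, 6.75 and 5.15 in CON. At 8 weeks it had 8.98, 6.20, 10.03, 8.65 and 2.82 FPKM in CRD, against 10.13, 4.50, 10.24 and 10.69 in CON. At 18 months 3 of 4 CRD libraries stood above every CON library, and at 8 weeks the groups overlapped with CON reaching higher. The change was 0.41 ± 0.27 at 18 months (95% interval -0.17 to 0.99) and -0.28 ± 0.27 at 8 weeks (-0.86 to 0.30), and the effects differed by 0.68 ± 0.39 (limma adjusted p = 0.548). Called were 0 of 3 members at 18 months, against 0.54% of all genes, 0 of 3 at 8 weeks against 0.0142%, and 0 of 3 for the difference against 0.37%. Il1b changed by -0.17 ± 0.31 at 18 months and 0.05 ± 0.31 at 8 weeks, and Csf3r by 0.03 ± 0.12 and 0.20 ± 0.12, none of them called.

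Ly6g stood at far higher levels than the granulocyte members in many colon libraries, and was picked out after its values had been seen. It lay below the sum of these members, given further on, in CON replicates 3 and 4 at 18 months and in CRD replicate 5 at 8 weeks. It had 8.39, 179.94, 123.17 and 40.89 FPKM in CRD at 18 months, against 3.22, 1.09, 0.75, 0.44 and 16.07 in CON. At 8 weeks it had 62.59, 8.85, 98.90, 29.93 and 0.71 FPKM in CRD, against 23.18, 102.84, 18.29 and 23.30 in CON. At 18 months 3 of 4 CRD libraries stood above every CON library, and 2 of them were several times higher than any PBMC library. The change of 4.06 ± 1.09 at 18 months did not pass the threshold (limma adjusted p = 0.0879), that at 8 weeks was -0.71 ± 1.09, and the difference of the effects was 4.77 ± 1.54 (adjusted p = 0.300). Without CRD replicate 1 at 18 months the change was called (4.90, adjusted p = 0.0283), as it was without CRD replicate 5 at 8 weeks (adjusted p = 0.0433).

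In colon at 18 months the granulocyte members did not follow Ly6g. S100a8, S100a9, Retnlg, Mmp8, Ngp and Camp together summed to 0.74, 0.10, 1.03 and 1.02 FPKM in CRD colon at 18 months, against 0.79, 0.50, 1.19, 0.70 and 0.28 in CON. The library with the most Ly6g, CRD replicate 3, had the lowest sum. At 8 weeks colon sums were 1.43, 2.27, 1.43, 1.10 and 0.81 FPKM in CRD, against 1.69, 3.66, 3.82 and 0.30 in CON, and CON replicate 3, with 102.84 FPKM of Ly6g, had 3.66. In the 8-week cecum the 3 libraries highest in Ly6g were also the 3 highest in the sum: CRD replicate 3 with 18.40 and 13.47 FPKM, CON replicate 2 with 18.90 and 6.26, and CON replicate 1 with 14.04 and 6.59. In cecum at 18 months Ly6g had 1.00, 0.24, 19.78 and 16.66 FPKM in CRD, against 0.53, 0.14, 0.81 and 0.25 in CON. Its change of 1.96 ± 0.82 was not called. The sums there were 2.13, 1.72, 3.03 and 0.91 FPKM in CRD, against 1.26, 1.52, 3.93 and 1.02 in CON. The lowest sum was that of CRD replicate 5, with 16.66 FPKM of Ly6g. The highest was that of CON replicate 3, with 0.81 FPKM of Ly6g. Ly6g belongs to a family of like genes, and the part of shared reads in these values was not tested.

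**Figure D4:**
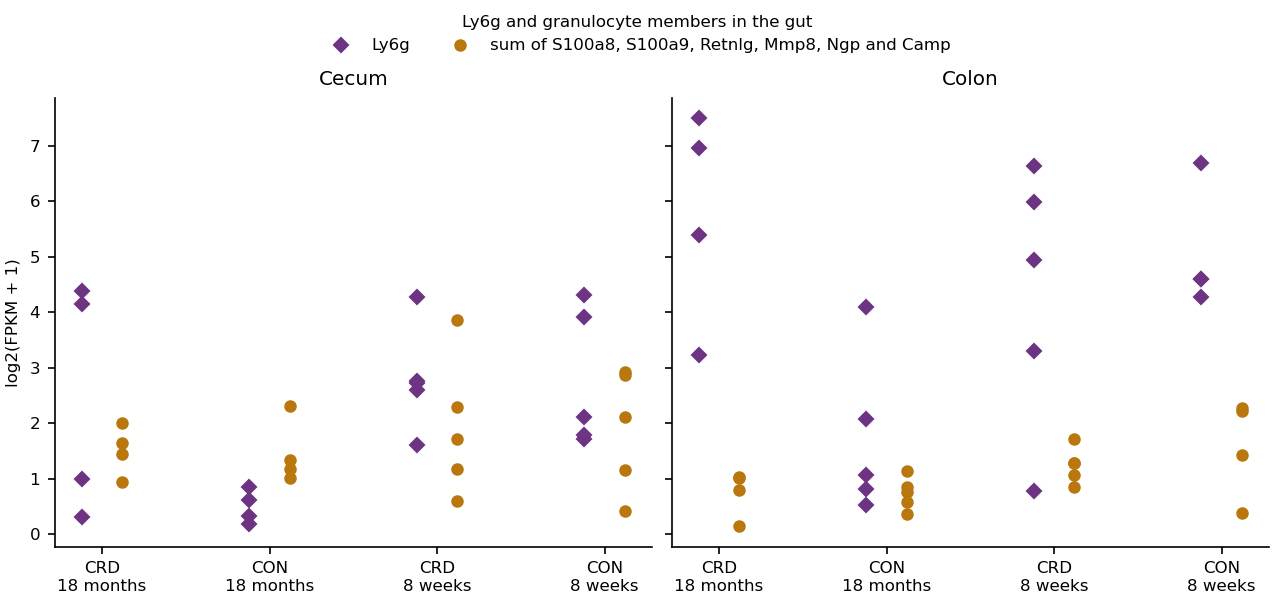
Level of Ly6g (purple diamonds) and of the sum of S100a8, S100a9, Retnlg, Mmp8, Ngp and Camp (brown circles) in each cecum and colon library, as log2(FPKM + 1), by schedule and age. In colon at 18 months the Ly6g points of CRD reach 179.94 FPKM, against at most 16.07 in CON, while the sum stays at or below 1.19 FPKM in both.

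In both brain regions the members varied widely among libraries of the same schedule. In the hypothalamus at 18 months S100a8 had 1.77, 6.86, 0.31, 1.03 and 1.91 FPKM in CRD, against 1.87, 4.03, 0.15 and 6.51 in CON. The groups overlapped fully, and the highest library of each was CRD replicate 2 and CON replicate 4. S100a8 changed by -0.26 ± 0.50, S100a9 by -0.10 ± 0.46 and Ngp by -0.23 ± 0.38. At 8 weeks S100a8 had 0.47, 1.83, 0.88, 2.07 and 1.17 FPKM in CRD, against 0.33, 1.04, 1.17, 3.39 and 0.31 in CON, with a change of 0.12 ± 0.47. The red cell sum averaged 423 ± 137 FPKM in CRD and 581 ± 208 in CON at 18 months, and 206 ± 76.0 in CRD and 186 ± 110 in CON at 8 weeks (SD, n = 4 or 5). In the hypothalamus limma called 0 of 6 members at 18 months, against 0.0277% of all genes, 0 of 6 at 8 weeks against 0% (203 genes at an unadjusted p under 0.05), and 0 of 6 for the difference against 0.0485%.

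The same replicate numbers were high in the 18-month hippocampus. CRD replicate 2 had 2.91 FPKM of S100a8, 5.89 of S100a9 and 2.76 of Ngp there, and CON replicate 4 had 2.86, 3.71 and 1.91. The labels do not say that a number marks the same mouse in the 2 regions. Deviations of S100a8 from its group means went with those of Ngp across the 19 libraries of each region, with r = 0.946 in hypothalamus and 0.908 in hippocampus (adjusted permutation p = 0.00038 each, rho = 0.844 and 0.849, r = 0.903 and 0.858 without the 2 farthest libraries). S100a9 gave r = 0.897 in hypothalamus and 0.814 in hippocampus (adjusted p = 0.0012 and 0.0019), and the 2 genes are neighbours on chromosome 3.

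For Lcn2 and Mmp9 the relation with S100a8 was not called, with r between -0.0661 and 0.0953 in both regions. Csf3r was not called either, with r = 0.542 in hippocampus (adjusted permutation p = 0.14) and -0.0384 in hypothalamus (adjusted permutation p = 0.93). The red cell sum, a sign of blood in the tissue, went with S100a8 in hypothalamus (r = 0.583, adjusted permutation p = 0.034, rho = 0.533, adjusted p = 0.083) and missed the threshold in hippocampus (r = 0.379, adjusted p = 0.23). Its part in the levels of S100a8 was not tested.

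**Figure D5:**
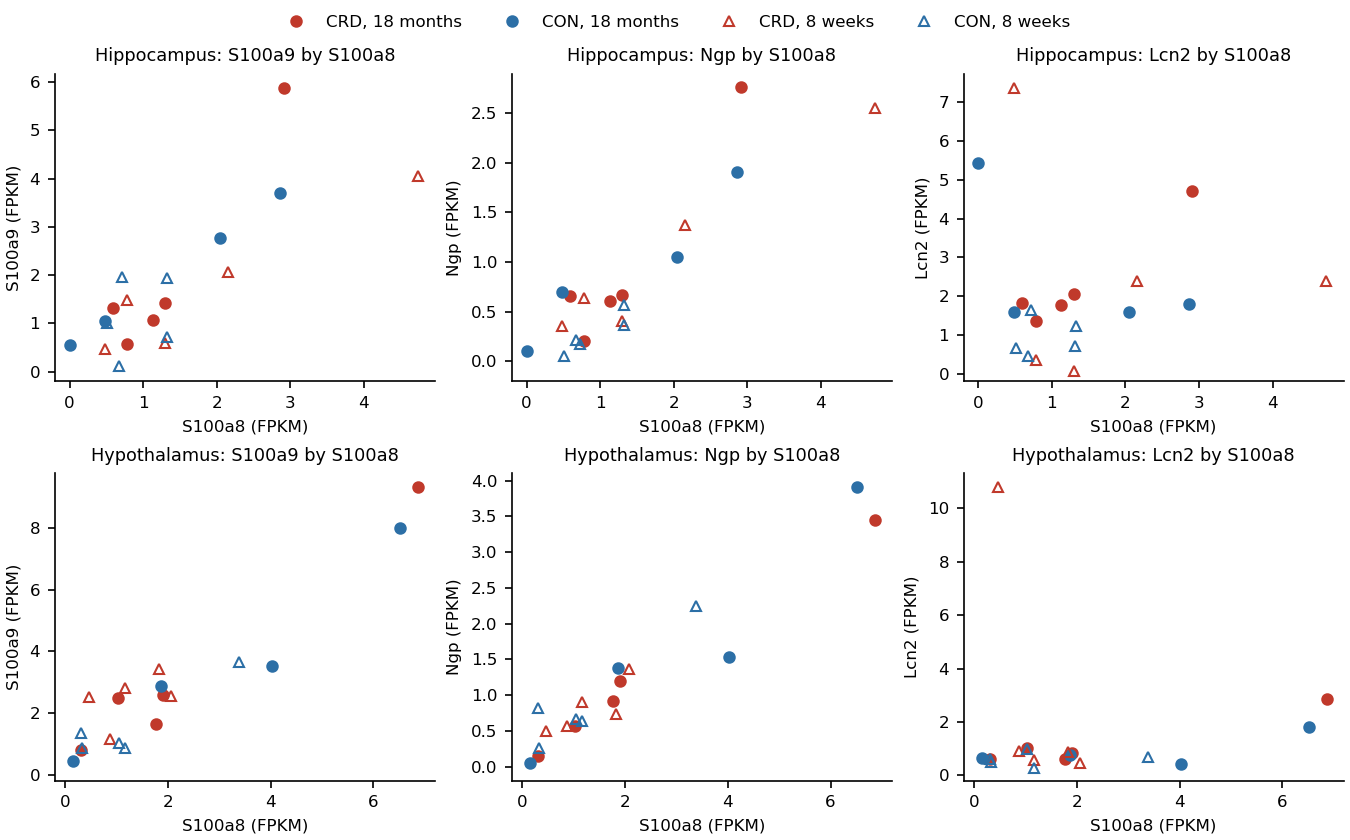
S100a9 (left), Ngp (middle) and Lcn2 (right) against S100a8, in FPKM, in each hippocampus (top) and hypothalamus (bottom) library. Red is CRD and blue CON, filled circles 18 months and open triangles 8 weeks; S100a9 and Ngp rise along with S100a8, while the highest Lcn2 points (7.38 and 10.78 FPKM) stand at low S100a8.

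In the hippocampus at 8 weeks Ngp had the smallest p of the members that passed the filter. It had 0.36, 2.55, 1.37, 0.64 and 0.41 FPKM in CRD, against 0.05, 0.17, 0.21, 0.37 and 0.57 in CON. 3 of 5 CRD libraries stood above every CON library, and the rest lay among them. The change was 0.61 ± 0.30 (95% interval -0.01 to 1.23, limma unadjusted p = 0.0548, limma adjusted p = 0.251), and 0.39 without the libraries low in Ttr. Camp, below the filter, had 0.20, 0.37, 0.63, 0.30 and 0.31 FPKM in CRD, against 0.11, 0, 0, 0 and 0.10 in CON, with the groups apart at these low levels. Of the genes that passed the filter, 1.36% had groups apart with CRD higher. Fitted without the filter, Camp had a log2 difference of 0.38 ± 0.14 and was not called (limma adjusted p = 0.218). S100a8 had 0.48, 4.73, 2.16, 0.78 and 1.30 FPKM in CRD, against 0.51, 0.72, 0.67, 1.33 and 1.32 in CON, with a change of 0.45 ± 0.36. Called at 8 weeks were 0 of 6 members, against 0% of all genes (2948 genes at an unadjusted p under 0.05). At 18 months 0 of 6 were called against 0% (749 at an unadjusted p under 0.05), with changes from -0.14 to 0.12, and for the difference 0 of 6 against 0.021%.

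Lcn2, which astrocytes can make as well, shared some high libraries with S100a8 and not others. At 18 months CRD replicate 2 was the highest of its group for Lcn2 in hippocampus (4.72 FPKM) and in hypothalamus (2.85), and CON replicate 4 was the highest of its group in hypothalamus (1.80). CRD replicate 1 at 8 weeks had 7.38 FPKM in hippocampus and 10.78 in hypothalamus, where the other CRD libraries of that age had 0.07 to 2.40 and 0.48 to 0.92 FPKM, and the CON libraries 0.44 to 1.64 and 0.29 to 0.98. S100a8 in CRD replicate 1 was 0.48 and 0.47 FPKM in the 2 regions, the lowest of its group in each. The change of Lcn2 at 8 weeks was 0.50 ± 0.42 in hippocampus and 0.65 ± 0.41 in hypothalamus (limma adjusted p = 0.484 and 1.00). Csf3r, which microglia also express, had CRD effects of -0.19 to 0.08 in the brain, each with an SE of at most 0.14. In the 8-week hippocampus it had 3.00, 5.96, 3.33, 3.08 and 3.60 FPKM in CRD, against 3.99, 5.04, 4.76, 4.11 and 3.92 in CON. All CRD libraries but replicate 2 lay below every CON library, and the change was -0.19 ± 0.13 (limma adjusted p = 0.394), or -0.31 ± 0.10 without the low-Ttr libraries (limma adjusted p = 0.388).

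Between 18 months and 8 weeks in CON, 0 members were called in any tissue. All genes were called at 1.51% in cecum, 0.981% in colon, 0.468% in hippocampus and 9.95% in hypothalamus. In the hypothalamus, S100a8 had 1.87, 4.03, 0.15 and 6.51 FPKM at 18 months, against 0.33, 1.04, 1.17, 3.39 and 0.31 at 8 weeks, and changed by 0.72 ± 0.50 (limma adjusted p = 0.324). In the hippocampus Csf3r had 6.52, 5.15, 4.37 and 5.97 FPKM at 18 months, against 3.99, 5.04, 4.76, 4.11 and 3.92 at 8 weeks, a change of 0.27 ± 0.14 (adjusted p = 0.321). Lcn2 had 1.59, 1.58, 5.44 and 1.80 FPKM there at 18 months, against 0.67, 1.64, 0.44, 1.23 and 0.72 at 8 weeks, a change of 0.81 ± 0.45 (adjusted p = 0.357). For all 3 the ages overlapped, with most 18-month libraries above the middle of the 8-week ones. Changes of the tested members ran from -0.61 to 0.19 in cecum (7 members) and from -0.46 to -0.14 in colon (3 members). In the brain they ran from 0.10 to 0.81 in hippocampus and from -0.08 to 0.72 in hypothalamus. None of these changes was called, and gut and brain were not tested against each other.

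Other genes of the lists did change with age. In the hypothalamus 8 of 10 monocyte and macrophage genes tested rose at 18 months, among them Lyz2 (lysozyme) by 1.96 ± 0.23 and Cd68, a lysosomal protein of phagocytes, by 1.11 ± 0.10 (limma adjusted p = 4.08e-05 and 1.59e-06). The median of that list was 0.58, against -0.04 for all genes. All 5 red cell genes rose too, with a median of 1.59, and so did S100b (0.40), Il33 (0.44) and Timp1 (0.62). In the hippocampus Lyz2 (1.78), Cd68 (0.92) and Cd14 (0.68) rose. In the cecum the antimicrobial lectins Reg3b and Reg3g fell by 5.21 and 3.33 at 18 months (adjusted p = 0.0187 and 0.0366). Lyz2, Cd68 and Timp1 kept their calls under every alternative. Cd14, Il33 and S100b lost theirs with some of the libraries left out (adjusted p of at most 0.118 for Cd14, 0.0750 for Il33 and 0.0706 for S100b), as did Reg3b (at most 0.0773) and Reg3g (at most 0.146).

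The CRD comparisons of the solid tissues gave few calls in the lists. In colon at 18 months Saa2, a serum amyloid A gene of the acute phase, rose by 1.46 ± 0.26 (limma adjusted p = 0.0147), 1 of 8 epithelial inflammation genes tested. For the difference of the effects in colon, Cd3d, a CD3 chain of the T cell receptor complex, gave -1.73 ± 0.34 (adjusted p = 0.0289), 1 of 7 T and NK cell genes. Both lost the call with the replicate block (adjusted p = 0.0644 for Saa2 and 0.120 for Cd3d) and with some libraries left out, at an adjusted p of at most 0.0746 for Saa2 and 0.0786 for Cd3d.

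The genes whose levels ran most like the mean of the tested members were named for the gut, over 18 libraries a tissue. In cecum, with 7 members in the mean, these were Wdr92 (Pearson r = 0.917), Cxcl16 (0.915), Gar1 (0.912), Osmr (0.908) and Tma16 (0.905). In colon, with 3 members, they were Rap1b (0.841), Serpinb8 (0.834), Tnfaip2 (0.825), Il6ra (0.803) and Tgfbr1 (0.8015). These values describe likeness over libraries that share tissue, age and schedule, and carry no test.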

How the data were processed

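Bulk RNA was sequenced in 78 mouse libraries. The deposited values were FPKM per gene in 1 table, with 2 decimals, made by the authors; the submitters' processing notes name HISAT2, Bowtie2, RSEM, DESeq2 and the build GRCm38, without versions or roles. Reads were not reprocessed. Read depth is not stated, and FPKM divides by what was mapped, so an abundant transcript (globin in PBMC) lowers the rest. How reads of close copies were split is not given in the sources used here.

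Groups followed tissue, age and schedule in the labels. Genes averaging 0.5 FPKM or more over a tissue's libraries were tested on log2(FPKM + 1) with limma 3.58.1 (R 4.3.3) and an intensity trend, 1 model over the 4 groups of a solid tissue and a separate one for PBMC; calls needed an adjusted p (Benjamini-Hochberg, over all genes tested) below 0.05. Fold changes on this scale understate those of low genes. The test was checked on simulated data. Alternatives were a pseudocount of 0.1, no filter, median-of-ratios scaling of FPKM, no trend, the replicate number as a block and each library left out. Added after the data had been seen were PBMC without red cell and platelet genes, hippocampus without 4 libraries low in Ttr (under 1000 FPKM), the S100a8 relations (within-group deviations, 100000 permutations, two-sided), the Ly6g account and the motif search. Of the members, 9 of 10 matched a RefSeq promoter (GRCm38.p6). Named from the other lists were up to 4 called genes per list and comparison by p, and others as said; the values of some list genes are not reported here. The members and gene lists were chosen with earlier results of these data known. Python 3.11.15, pandas 2.3.3, numpy 2.4.6, scipy 1.17.1 and matplotlib 3.10.9 were used.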

Additional observations from a re-analysis of the deposited data

Results flagged for a closer look

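Of 88 sets of values, each 1 tested member in 1 solid tissue group of 4 or 5 libraries, 8 held a library whose gap to the rest was large by Dixon's 95% limit; chance gives about 1 in 20. S100a9 had 1.43 FPKM in CON replicate 3 of the 18-month cecum, the others having 0.24 to 0.37, and 3.66 in CON replicate 4 of the 8-week hypothalamus, the others having 0.85 to 1.34. Lcn2 had 4.5 FPKM in CON replicate 3 of the 8-week colon, below the 10.13 to 10.69 of the others. In the brain Lcn2 stood high in 3 libraries. These were CON replicate 3 of the 18-month hippocampus with 5.44 FPKM (others 1.58 to 1.80), CRD replicate 2 of the 18-month hypothalamus with 2.85 (others 0.62 to 1.03) and CRD replicate 1 of the 8-week hypothalamus with 10.78 (others 0.48 to 0.92). Csf3r had 5.96 FPKM in CRD replicate 2 of the 8-week hippocampus, the others having 3.00 to 3.60. Ngp had 2.76 FPKM in CRD replicate 2 of the 18-month hippocampus, the others having 0.20 to 0.67. PBMC groups had too few libraries for this test.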

How the results depend on the processing

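In PBMC the number of members called moved with the processing. Called were 0 of 10 with no filter, 0 of 10 with median-of-ratios scaling and 0 to 10 with 1 library left out, against 8 as reported; the cause was not tested. The count was 8 with a pseudocount of 0.1, no trend, the replicate block and no red cell or platelet genes. Mmp8 was called without CRD replicate 1 (limma adjusted p = 0.0303) or CRD replicate 2 (0.00129), and Csf3r without CRD replicate 2 (0.0273). The genes called in PBMC were 133 as reported, 0 to 180 under other settings and 8 to 5279 with 1 library left out. In the solid tissues 0 members were called under any alternative, and 127 of 2088 fits of a member gave the other sign.

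Without the low-Ttr libraries, all CRD, hippocampus changes with the other sign were 0.094 for S100a9, 0.018 for Lcn2 and 0.098 for Ngp at 18 months, -0.065 for S100a9 at 8 weeks and 0.16 for S100a9 in the difference. With the replicate block they were 0.12 for Csf3r in cecum, 0.025 for S100a9, 0.071 for Lcn2 and 0.019 for Ngp in hippocampus at 18 months, 0.010 for Mmp9 in the hypothalamus difference and -0.017 for Csf3r in hypothalamus age in CON. The block changed no call of a member. Over all tissues same-numbered libraries did not pair as a rule: 15 of 36 pairs had r over 0.1, from -0.34 to 0.53. In PBMC they did deviate together, with r = 0.53 for both numbers. Those values must be equal, because 2 libraries of a group deviate as mirror images. With a pseudocount of 0.1 the changes with the other sign were 0.21 for S100a9 in 8-week cecum and 0.061 for Ngp in 18-month hippocampus. The others at that setting were 0.027 for S100a8 in the hippocampus difference, -0.29 for S100a8 in hippocampus age in CON and 0.034 for Ngp in 8-week hypothalamus. With median-of-ratios scaling they were 0.044 for Csf3r in 18-month cecum and 0.0042 for Ngp in 18-month hippocampus.

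Leaving out 1 library changed the sign of these log2 changes. In cecum, for the 18-month CRD effect, they ran from -0.067 to 0.34 for S100a9, -0.21 to 0.24 for Lcn2 and -0.20 to 0.075 for Csf3r. For the 8-week CRD effect there they ran from -0.31 to 0.14 for Retnlg, -0.18 to 0.42 for Il1b, -0.021 to 0.37 for S100a8, -0.46 to 0.30 for S100a9, -0.46 to 0.028 for Lcn2, -0.20 to 0.11 for Csf3r and -0.35 to 0.41 for Ly6g. In the same tissue, for the difference of the effects, they ran from -0.15 to 0.45 for Il1b, -0.18 to 0.57 for S100a9, -0.00832 to 0.51 for Lcn2 and -0.16 to 0.16 for Csf3r. Last, for age in CON in cecum, they ran from -0.34 to 0.093 for Retnlg and -0.12 to 0.080 for Mmp9. In colon, for the 18-month CRD effect, they ran from -0.34 to 0.13 for Il1b and -0.042 to 0.091 for Csf3r. For the 8-week CRD effect there they ran from -0.053 to 0.24 for Il1b and -1.29 to 0.18 for Ly6g. In the same tissue, for the difference of the effects, they ran from -0.41 to 0.074 for Il1b. In hippocampus, for the 18-month CRD effect, they ran from -0.22 to 0.43 for S100a8, -0.41 to 0.20 for S100a9, -0.28 to 0.25 for Lcn2 and -0.26 to 0.22 for Ngp. For the 8-week CRD effect there they ran from -0.016 to 0.051 for Mmp9. In the same tissue, for the difference of the effects, they ran from -0.040 to 0.19 for Csf3r. Last, for age in CON in hippocampus, they ran from -0.19 to 0.46 for S100a8. In hypothalamus, for the 18-month CRD effect, they ran from -0.77 to 0.13 for S100a8, -0.58 to 0.30 for S100a9, -0.057 to 0.37 for Lcn2 and -0.61 to 0.13 for Ngp. For the 8-week CRD effect there they ran from -0.032 to 0.40 for S100a8 and -0.16 to 0.18 for Ngp. In the same tissue, for the difference of the effects, they ran from -0.90 to 0.00385 for S100a8, -0.71 to 0.076 for Lcn2, -0.083 to 0.045 for Mmp9 and -0.59 to 0.16 for Ngp. Last, for age in CON in hypothalamus, they ran from -0.076 to 0.13 for Csf3r.

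Genes called varied as well, which bears on the backgrounds given. As reported, under other settings, and with 1 library left out, they were 4, 2 to 5 and 2 to 12 in 18-month cecum, 1, 0 to 2 and 1 to 2 at 8 weeks, 5, 0 to 8 and 0 to 84 for the difference and 207, 98 to 187 and 26 to 314 for age. In colon they were 76, 17 to 90 and 22 to 470, then 2, 1 to 9 and 0 to 7, then 52, 37 to 68 and 46 to 66, and 138, 79 to 160 and 71 to 255 in the same order. In hippocampus they were 0, 0 to 1 and 0 to 1, then 0 throughout, then 3, 0 to 3 and 0 to 8, and 67, 55 to 999 and 25 to 289. In hypothalamus they were 4, 0 to 5 and 0 to 18, then 0, 0 and 0 to 2, then 7, 3 to 14 and 3 to 21, and 1436, 925 to 3164 and 186 to 3989. Of the other called list genes, 75 fits in PBMC and 110 in solid tissue lost the call. Read depth is not stated, and counting error at low values was not given. Relative depth, estimated from the lowest values above 0 of 2355 genes, ran from 0.956 to 1.12 over the 78 libraries. The smallest values above 0 were 0.15 FPKM for S100a8, 0.11 for S100a9 and 0.09 for Camp. Their medians over the solid libraries were 0.65, 0.925 and 0.195 FPKM.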

Other observations

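Some members below the filter had differences that no test called. In CRD against CON without the filter, Ngp in the 8-week colon had a log2 difference of -0.33 ± 0.12 (limma adjusted p = 0.633). Il1b in the 18-month hypothalamus had 0.30, 0.47, 0.30, 0.40 and 0.20 FPKM in CRD, against 0.13, 0.27, 0.20 and 0.04 in CON, a change of 0.20 ± 0.08 (limma adjusted p = 0.370). With age in CON colon, the log2 differences were -0.63 for S100a8, -0.46 for S100a9, -0.46 for Ngp and 0.43 for Mmp9, none of them called, at limma adjusted p-values from 0.0929 to 0.295. Ngp was listed at 0 in all 9 colon libraries of 18 months, while at 8 weeks it had 0, 0.29, 0.19, 0 and 0 FPKM in CRD and 0.38, 0.77, 0.46 and 0 in CON. Il1b in CON hippocampus had 0.43, 0.68, 0.50 and 0.34 FPKM at 18 months, against 0.09, 0.49, 0.05, 0.05 and 0.09 at 8 weeks, a change of 0.37 ± 0.11 in the fit without the filter (limma adjusted p = 0.129). Ly6g fell short of a call for age in CON colon, at -3.33 ± 1.09 (limma adjusted p = 0.145). The ratio of Ngp to Camp in PBMC was 3.33 and 5.90 in CRD and 3.15 and 6.48 in CON, again closer between the schedules than between the replicate numbers.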
